A study of Mus musculus with 7 samples.

Results

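The members of the complement system described here are 8 genes: C3, Cfb, C2, C4b, Cfp, Cd59a, Cr1l and Gm20547, a gene model that overlaps Cfb and C2. They were taken as the 8 of 40743 genes of the deposited table that carry these symbols. The choice was made with their laser responses already known, so their differences between groups are given as a description. Calls of the fit across all genes are counted for them, also under alternative settings, and these counts support nothing. All 8 were compared between 3 unlasered and 4 lasered libraries of retinal microglia (rMG).

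The rMG came from mice on a C57BL/6J background with the genotype Cx3cr1GFP/+ Irf8-/-, in which GFP replaces 1 of the Cx3cr1 copies and the transcription factor gene Irf8 is deleted in every cell. Unlasered mice were untreated adults. Lasered mice were taken 7 days after laser photocoagulation, a model of choroidal neovascularisation (CNV), and only the central 70% of their retinae was used, so the effect of the laser and of the retinal region cannot be told apart. Each library held on average 10000 sorted CD45low CD11b+ Ly6C- Ly6G- GFP+ cells pooled from 3 to 4 mice. Both groups carry the knockout, and no wild-type library was analysed here. Exact ages are not given in the sources used here.

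Complement is a cascade of plasma and tissue proteins that marks particles and cells for uptake and can perforate membranes. The classical and lectin pathways cut C4 and C2 to form a convertase, the alternative pathway builds its own from C3b and factor B, and both converge on C3. Properdin stabilises the alternative convertase, whereas surface proteins such as CR1-related protein Y (Crry) and CD59 restrain the cascade on host cells. Microglia are a known source of C1q and C3 in nervous tissue, where C3 fragments tag synapses and debris for uptake through complement receptor 3.

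C3 and the properdin gene Cfp stood higher in every lasered than in every unlasered library, and for both the start region is given in RefSeq. The stretches below run from 250 bases before to 30 bases after the RefSeq start in GRCm38.p6, 5′ to 3′ on the minus strand of the genome, at chr17:57228107-57228386 for C3 and chrX:20931526-20931805 for Cfp. Capitals mark matches to motifs searched on both strands: GGGNNNNNCC (an NF-kB type site), TTGCNNAA (C/EBP type) and TATAAA.
C3: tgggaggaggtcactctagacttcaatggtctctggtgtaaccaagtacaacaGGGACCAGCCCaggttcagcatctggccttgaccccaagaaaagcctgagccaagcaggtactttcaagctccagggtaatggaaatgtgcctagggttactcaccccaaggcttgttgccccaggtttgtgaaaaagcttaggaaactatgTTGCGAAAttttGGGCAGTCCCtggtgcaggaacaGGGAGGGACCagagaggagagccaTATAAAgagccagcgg
Cfp: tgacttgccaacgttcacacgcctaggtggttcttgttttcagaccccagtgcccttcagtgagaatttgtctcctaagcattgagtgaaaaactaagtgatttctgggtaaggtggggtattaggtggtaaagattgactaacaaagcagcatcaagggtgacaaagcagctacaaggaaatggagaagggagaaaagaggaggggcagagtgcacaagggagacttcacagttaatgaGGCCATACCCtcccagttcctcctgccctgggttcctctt
In the C3 window the NF-kB letters were found at positions -197, -196, -33 and -10 counted from the start, where the matches at -197 and -196 overlap on opposite strands and the match at -33 reads on both. The C/EBP letters were found at -45 as TTGCGAAA and the TATA letters at 15. The Cfp window held a match to the NF-kB letters at -10, read on the opposite strand. These letters were also in the windows of the members Cr1l (at -61) and Cd59a (at -13 and 8). Both stood lower after laser without passing the fit across all genes. The margin of Cr1l was narrow, and the fall of Cd59a came mainly from unlasered library 2, as given below. Of 32851 RefSeq windows of 300 bases, 50.8% held GGGNNNNNCC, 10.8% held TTGCNNAA and 13.6% held TATAAA. GAAANNGAAA and GGAANNGAAA, the letters of an interferon response element and of a composite site used by IRF8 with an ETS factor, were in 3.44% and 2.72% of the windows. Neither was in the windows of C3 and Cfp, and of the 4 members with a window (C3, Cfp, Cd59a and Cr1l) Cd59a alone held the interferon letters, at -187. These are matches of letters, and no binding was measured.

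Total reads per library were 20427558 to 36022954 in the unlasered and 37133297 to 45919042 in the lasered group. A floor of 3 reads corresponds to 0.0653 to 0.147 CPM, reads scaled to a common total per library, and it covers counting error only. Irf8, the deleted gene, was listed at 489 to 530 CPM in unlasered and 463 to 582 CPM in lasered libraries, all of it in reads listed jointly with an overlapping gene model. The table sums reads over whole genes, so it does not show whether the deleted part was read, and the libraries are called here by their label, Irf8 KO. The microglial markers summed to 23098 to 27683 CPM in the unlasered and 20775 to 27956 CPM in the lasered group, and only Sall1 was near 0. Of 9 fitted markers 0 passed the test, and their median log2 fold change was -0.20. P2ry12 stood lower in each lasered library (244 to 404 CPM) than in each unlasered library (412 to 569 CPM), and the other fitted markers overlapped. The rod photoreceptor markers came to 1621, 15570 and 4654 CPM over unlasered libraries 1, 2 and 3 and to 246 to 851 CPM after laser, where 9 of 10 fell. The marker sums of dendritic cells were 138 and 159 CPM in lasered libraries 1 and 2 and at most 43.5 CPM elsewhere, with 0 of 6 markers passing the test. The monocyte sums were 134 and 182 CPM in lasered libraries 1 and 2 and 11.4 to 67.5 CPM elsewhere, with 0 of 4 passing. Markers of border macrophages summed to 1196 to 1302 CPM in unlasered and 641 to 963 CPM in lasered libraries, and 1 of 4 fell. Of the neutrophil markers 1 of 2 rose, Mmp8, from at most 0.0555 CPM to 0.889 to 5.72 CPM, with sums of 0.818 to 11.5 CPM in unlasered and 1.64 to 13.9 CPM in lasered libraries. Of the Müller glia and astrocyte markers 1 of 5 rose, Gfap, at 0, 0 and 1.53 CPM in unlasered and 2.18 to 3.87 CPM in lasered libraries, with sums of 426 to 780 and 178 to 482 CPM. The part of these cells in the members' values was not tested. In sorted pools a difference in the number of cells of a type and in the RNA per cell cannot be told apart.

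Of the 8 members, 7 were high enough for the fit across all genes (at least 1 CPM in at least 3 libraries), and the reads of Cfb alone were not. Among the 7, 3 passed an adjusted p of 0.05 upwards (Gm20547, C3 and Cfp) and 0 downwards, where 6.93% of the 17496 genes fitted passed in either direction, 3.86% upwards and 3.07% downwards. By CPM, the groups did not overlap for 3 members that were higher (Gm20547, C3 and Cfp) and 2 that were lower (Cd59a and Cr1l). Of all fitted genes, 10.4% were higher without overlap, 10.7% lower and 21.0% either. For Cr1l the separation did not hold under median-of-ratios scaling. The median log2 fold change of the 7 was 1.25, and that of all fitted genes was -0.01. The members were chosen for this contrast, so these counts describe the choice and are no test of it. The count also rests on single libraries for C3, which dropped out of it when any library other than unlasered library 3 was left out. C3 also dropped out with the count models edgeR and DESeq2, with no filter on low values, with a filter of a mean of at least 10 reads and with replicate number as a block. It passed in 4 of 15 alternatives. All fold changes are differences of log2(CPM + 1), lasered minus unlasered, with the standard error (SE) of the limma fit, and on this scale the change of genes at a few CPM is understated.

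**Figure D1:**
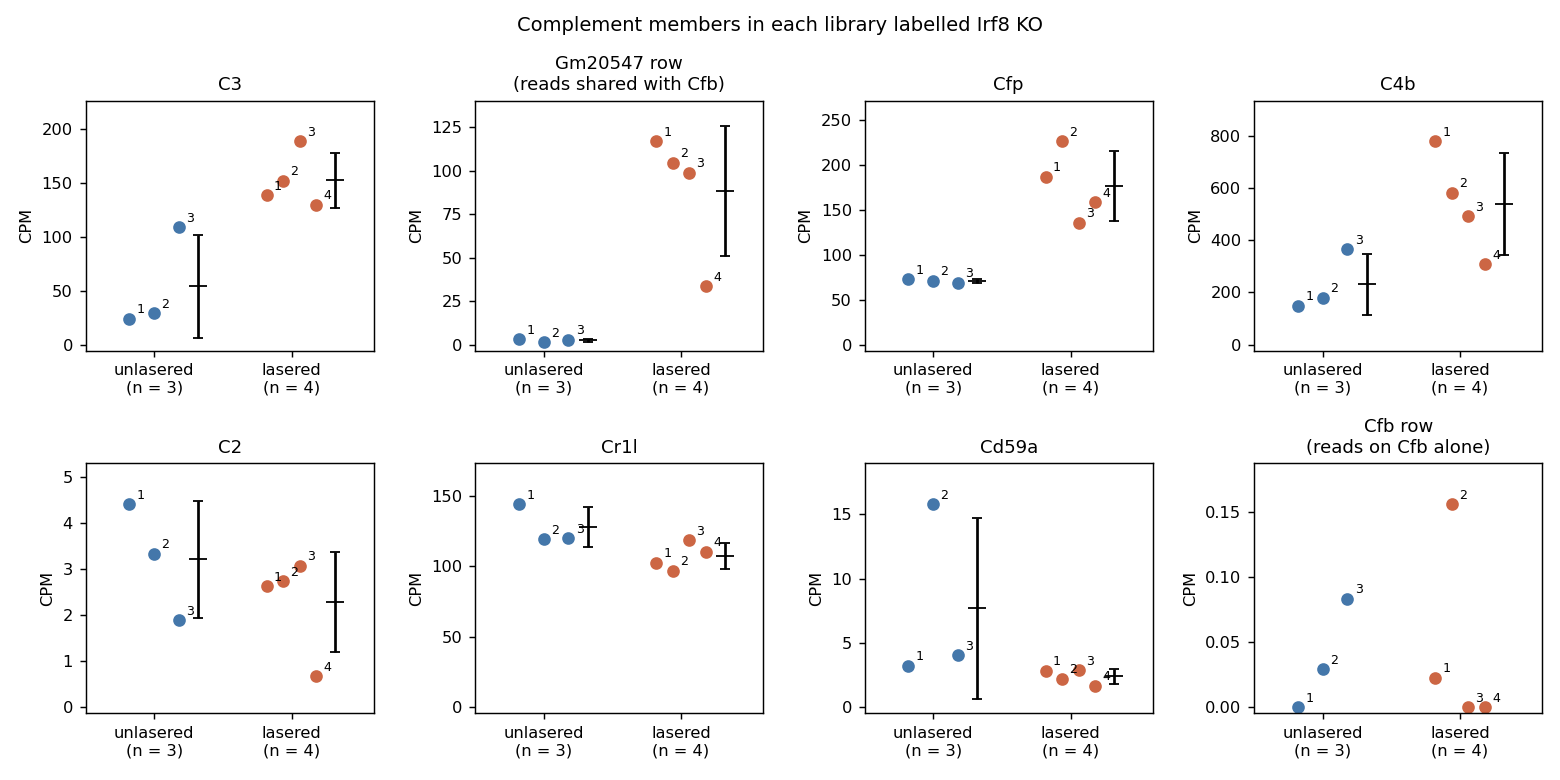
CPM of the 8 members in each library (numbers, library within the group) for 3 unlasered and 4 lasered libraries, with mean and SD beside the points except for the Cfb row, which stands near 0. The Gm20547 row, C3 and Cfp are higher in each lasered than in each unlasered library, C4b and C2 overlap, and Cr1l and Cd59a are lower.

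C3, the central component from which the opsonin C3b and the anaphylatoxin C3a are cut, was read at 24.1, 29.0 and 109 CPM in the unlasered and 139, 152, 188 and 130 CPM in the lasered libraries. Unlasered library 3 stood close to the lasered group, whose lowest library was 1.19 times as high. The mean was 53.9 ± 47.5 CPM (SD, n = 3) in unlasered and 152 ± 25.8 CPM (SD, n = 4) in lasered rMG, a log2 fold change of 1.80 (SE 0.44). The lasered libraries differed among themselves by 1.45 times and the unlasered libraries by 4.51 times. Without unlasered library 3 the log2 fold change was 2.47, and without unlasered library 1 it was 1.40. The values rest on 492 to 8653 reads. C3 lies at chr17:57203970-57228136 (GRCm38, minus strand, ENSMUSG00000024164), its reads include some listed jointly with Mir6978, and none of its 50-base words occurs in another annotated gene.

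Factor B, the serine protease that forms the alternative C3 convertase with C3b, is encoded by Cfb at chr17:34856374-34862518 (minus strand, ENSMUSG00000090231). Gm20547 (chr17:34856412-34882042, ENSMUSG00000092511) spans almost all of Cfb and reaches into C2, so that 79.5% of the exonic bases of Cfb lie in exons of Gm20547 and 98.7% within its span. Reads on Cfb are therefore listed for the pair, under the symbol Gm20547. The row headed Cfb held 0, 1 and 3 reads in unlasered and 1, 7, 0 and 0 reads in lasered libraries, at or near the floor of 3 reads, and no fold is given. All reads of the Gm20547 row were listed jointly with Cfb, some of them also with Mir6972.

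The Gm20547 row was read at 3.04, 1.46 and 2.86 CPM in the unlasered and 117, 105, 98.9 and 33.5 CPM in the lasered libraries. Lasered library 4 was the lowest of its group and still 11.0 times as high as the highest unlasered library. The means were 2.45 ± 0.863 CPM (SD, n = 3) and 88.5 ± 37.4 CPM (SD, n = 4), a 36.1-fold ratio. The log2 fold change was 4.59 (SE 0.41), which ranked 1 of 17496 fitted genes from the top, and it ran from 4.36 to 5.18 over 15 alternative settings. In reads the row held 62, 50 and 103 in unlasered libraries and 5160, 4698, 4542 and 1245 in lasered libraries.

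The sums of dendritic cell and monocyte markers were high in lasered libraries 1 and 2 only, whereas the Gm20547 row in lasered library 3, at 98.9 CPM, stood close to them. Lasered library 3 had a dendritic cell sum of 36.4 CPM and a monocyte sum of 32.8 CPM, both within the unlasered range. Most of this dendritic cell sum was Zbtb46 at 23.5 CPM, and other markers in lasered library 3 lay above every unlasered library. Cd209a was at 2.87 CPM there against at most 0.0979 CPM, Ccr7 at 5.34 against at most 4.16 CPM, and Ccr2 at 19.7 against at most 14.2 CPM. The part of these cells in the values of the Gm20547 row was not tested.

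C2, the protease of the classical and lectin convertase, is encoded next to Cfb with a gap of 85 bp (chr17:34862604-34898265, minus strand, ENSMUSG00000024371), and 42.8% of its exonic bases lie in exons of Gm20547. It also overlaps exons of Zbtb12 on the other strand, and the library kit does not mark strand. Its row, which includes reads listed jointly with Gm20547, was read at 4.41, 3.33 and 1.89 CPM in the unlasered and 2.63, 2.74, 3.07 and 0.673 CPM in the lasered libraries. The groups overlapped, and the log2 fold change was -0.39 (SE 0.35). Without lasered library 4 it was -0.10. The ratio of reads in the Gm20547 row to reads in the C2 row was 0.439 to 1.51 in unlasered and 32.2 to 49.8 in lasered libraries. Lasered library 4 was low in both rows, with 1245 and 25 reads, and its ratio of 49.8 was the highest.

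**Figure D2:**
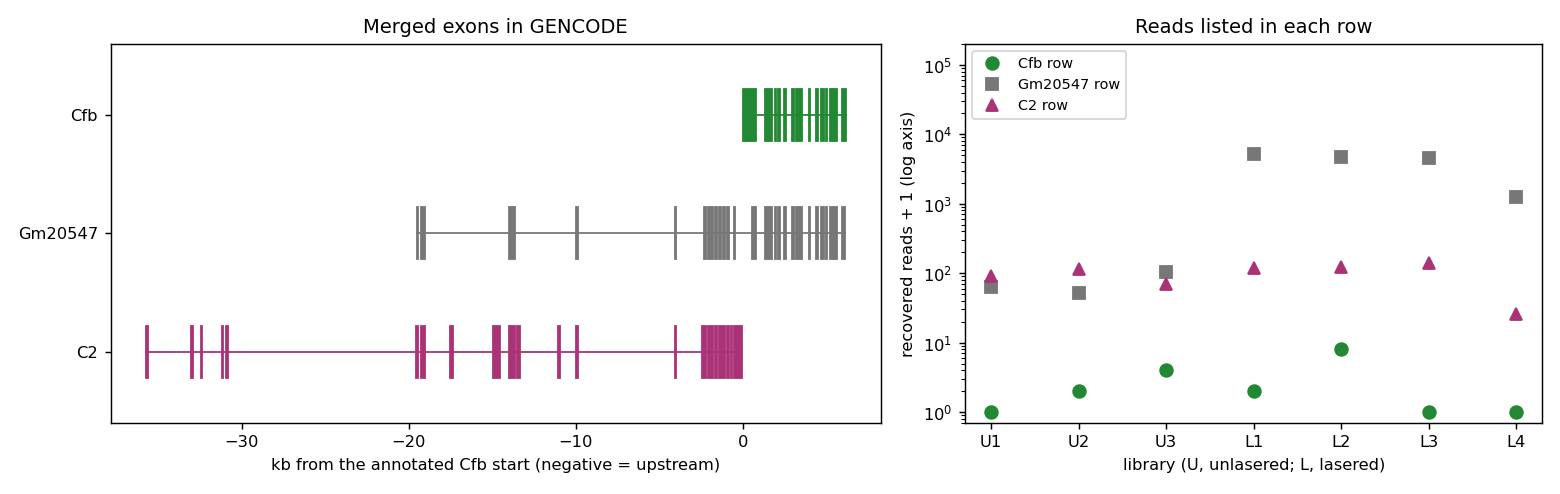
Left, merged exons (boxes) of Cfb, Gm20547 and C2 by distance in kb from the annotated Cfb start, with negative values upstream. Right, recovered reads + 1 (log axis) in the rows headed Cfb, Gm20547 and C2 for each library: the Gm20547 row holds 50 to 103 reads in unlasered and 1245 to 5160 reads in lasered libraries, the C2 row holds 25 to 141 reads, and the Cfb row holds 0 to 7 reads.

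Cfp encodes properdin, the stabiliser of the alternative convertase (chrX:20925454-20931555, minus strand, ENSMUSG00000001128). It was read at 73.0, 71.2 and 68.9 CPM in the unlasered and 187, 227, 136 and 159 CPM in the lasered libraries. The unlasered libraries differed by 1.06 times, and the lowest lasered library was 1.86 times as high as the highest of them. The means were 71.0 ± 2.06 CPM (SD, n = 3) and 177 ± 39.1 CPM (SD, n = 4), a log2 fold change of 1.28 (SE 0.17) that ran from 1.15 to 1.40 when a library was left out. Unlasered library 3, which was high for C3, had the lowest Cfp of the 7 libraries.

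C4b, a C4 gene of the mouse and the source of C4b in the classical and lectin convertase, was read at 150, 180 and 366 CPM in the unlasered and 778, 581, 491 and 307 CPM in the lasered libraries (chr17:34728380-34743882, minus strand, ENSMUSG00000073418). Unlasered library 3 was higher than lasered library 4, so the groups overlapped. The means were 232 ± 117 CPM (SD, n = 3) and 539 ± 196 CPM (SD, n = 4), a log2 fold change of 1.25 (SE 0.36). It was 1.63 without unlasered library 3 and 1.49 without lasered library 4. The same unlasered library 3 was the highest of its group for C3 and C4b. Within the lasered group C4b and Cfp were highest in libraries 1 and 2, which also had the high sums of dendritic cell and monocyte markers, and the part of those cells in the values was not tested.

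C4b and its neighbour C4a, annotated as a processed transcript at chr17:34809092-34823464, share 34.6% of the 50-base words of C4b, so the division of reads between them is uncertain. C4a, named after its values were seen, was read at 37.9, 42.6 and 91.7 CPM in unlasered and 182, 142, 121 and 72.8 CPM in lasered libraries. Its log2 fold change was 1.20 (SE 0.36, adjusted p = 0.0833 in limma), and it passed without unlasered library 3, without lasered library 4, with median-of-ratios scaling and with DESeq2. C4a stood at 23.7% to 25.4% of C4b in unlasered and 23.4% to 24.6% in lasered libraries, so its reads stayed in nearly a fixed proportion to those of C4b. Their sum was 188 to 457 CPM in unlasered and 380 to 960 CPM in lasered rMG.

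The 2 membrane regulators among the members stood lower by CPM in each lasered than in each unlasered library. Cr1l encodes Crry, which inactivates C3 convertases on rodent cells (chr1:195097382-195131586, minus strand, ENSMUSG00000016481). It was read at 144, 119 and 120 CPM in the unlasered and 103, 96.9, 119 and 110 CPM in the lasered libraries. The highest lasered value, 118.6 CPM in library 3, lay just under the lowest unlasered value, 119.2 CPM in library 2. The log2 fold change was -0.25 (SE 0.13), between -0.30 and -0.16 when a library was left out. With median-of-ratios scaling the groups of Cr1l overlapped, and the log2 fold change was -0.17 (SE 0.14).

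Cd59a encodes a CD59 protein, which blocks assembly of the membrane attack complex (chr2:104095801-104115354, plus strand, ENSMUSG00000032679). It was read at 3.23, 15.8 and 4.05 CPM in the unlasered and 2.83, 2.23, 2.87 and 1.67 CPM in the lasered libraries. The level was set apart by unlasered library 2, the library with the highest rod marker sum, and the part of rod RNA in this value was not tested. The log2 fold change was -1.08 (SE 0.43), and without unlasered library 2 it was -0.46. The paralog Cd59b, which shares 3.87% of the 50-base words of Cd59a, was read at 0.783, 2.66 and 0.611 CPM in unlasered and 0.334 to 0.566 CPM in lasered libraries, under the filter for the fit, and was also highest in unlasered library 2.

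Levels of different genes were compared per kb of exon, with the Gm20547 row divided by the exonic length of Cfb. In unlasered rMG the order of the members by mean was Cfp at 40.9, C4b at 40.7, Cr1l at 12.3, C3 at 10.5, Cd59a at 4.25, the Gm20547 row at 0.868 and C2 at 0.828 CPM per kb. The neighbours Cfp and C4b, Cr1l and C3, C3 and Cd59a, and the Gm20547 row and C2 overlapped in their libraries. In lasered rMG the order was Cfp at 102, C4b at 94.7, the Gm20547 row at 31.3, C3 at 29.6, Cr1l at 10.3, Cd59a at 1.33 and C2 at 0.588 CPM per kb. Here Cfp overlapped with C4b and the Gm20547 row with C3, whereas Cr1l, Cd59a and C2 stood apart from their neighbours. Among 60 complement genes ranked by this measure the Gm20547 row moved from rank 27 to rank 11, C3 from 14 to 12 and Cr1l from 13 to 16.

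The balance between components differed between the groups by the same contrast. Reads of the Gm20547 row, which are shared by Cfb and Gm20547, were per kb of Cfb exon 0.0479 to 0.229 of those of C3 in unlasered and 0.470 to 1.54 in lasered libraries, and 0.0126 to 0.0256 against 0.130 to 0.447 of those of Cfp. In relation to C3ar1, the receptor of C3a, C3 stood at 0.0163 to 0.0746 and 0.0854 to 0.0988. In both groups the transcripts of C1q were the most abundant of the system, at 1966 to 3552 CPM per kb in unlasered and 1882 to 3942 CPM per kb in lasered means.

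**Figure D3:**
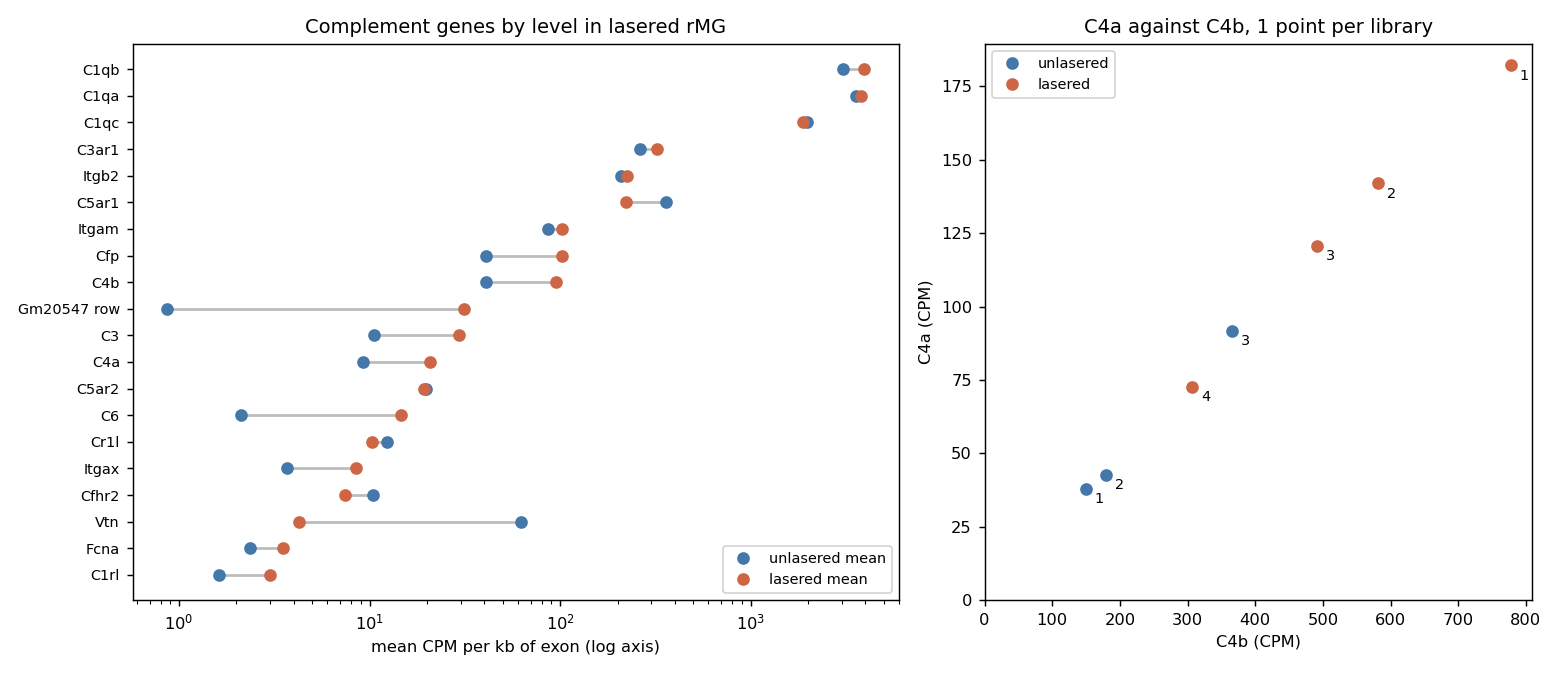
Left, mean CPM per kb of exon (log axis) of 20 complement genes with high levels in lasered rMG, in unlasered and lasered libraries; the Gm20547 row goes from 0.868 to 31.3 and Cfp from 40.9 to 102. Right, C4a against C4b in CPM for each library (numbers, library within the group): the points lie near 1 line, with C4a at 23.4% to 25.4% of C4b.

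Beside the members, 53 other genes of the complement system were examined, grouped by role, and 29 were high enough for the fit. Of these, 1 rose and 3 fell at an adjusted p of 0.05 in limma, and 25 did not pass, against the 3.86% and 3.07% of all fitted genes given above. The groups did not overlap for 2 that were higher and 4 that were lower. Of all fitted genes, 10.4% were higher without overlap, 10.7% lower and 21.0% either. The median log2 fold change of the 29 was 0.10. An unadjusted p under 0.05 was found for 10 of the 29 and for 3963 of the 17496 genes fitted.

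In the classical pathway, 1 of 7 fitted genes of 9 rose. C1rl, which encodes a C1r-like protease, was read at 5.97, 4.61 and 3.97 CPM in unlasered and 9.09, 8.93, 9.71 and 8.56 CPM in lasered libraries, with a log2 fold change of 0.80 (SE 0.18, adjusted p = 0.0364 in limma). It missed the threshold in 8 of 16 alternatives, among them each setting that left out unlasered library 2 or 3 or a lasered library, and its adjusted p ran from 0.00293 to 0.145 over all of them. C1qb, which encodes a chain of C1q, stood at 3315 ± 555 CPM (SD, n = 3) in unlasered and 4289 ± 321 CPM (SD, n = 4) in lasered libraries without overlap, and did not pass (log2 fold change 0.38, SE 0.13, adjusted p = 0.123 in limma). The other C1q chains, C1qa at 0.10 (SE 0.13, adjusted p = 0.679) and C1qc at -0.05 (SE 0.13, adjusted p = 0.854), did not pass in limma, and the sign of both turned under some settings.

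In the lectin pathway 0 of 3 fitted genes of 8 passed. Cfd, which encodes factor D, the protease that activates factor B, was at 1 read in lasered library 1 and at 0 in the other libraries, so that it was not detectable above the floor of 3 reads at this depth. Of the terminal pathway, 2 of 7 genes could be fitted and 0 passed. C6, a component of the membrane attack complex named here after its values were seen, was read at 7.05, 4.88 and 10.5 CPM in unlasered and 87.3, 65.5, 46.8 and 8.00 CPM in lasered libraries. Lasered library 4 lay among the unlasered libraries, and the log2 fold change of 2.29 (SE 0.68) did not pass (adjusted p = 0.0815 in limma). C6 did pass without lasered library 4, with edgeR and with DESeq2. Hc, which encodes C5, at 0.672 to 3.38 CPM in unlasered and 0.218 to 0.579 CPM in lasered libraries, and C7 were under the filter. Both stood lower in every lasered than in every unlasered library, as did Cfi and Cd59b, and also Cpn2, which did not exceed the floor of 3 reads. Of the 24 other complement genes under the filter, these 5 were lower without overlap and 0 were higher. They rest on few reads, such as 8 to 41 for C7 and 7 to 28 for Cfi. The share over all genes under the filter was not counted.

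Of the complement receptors 1 of 8 fitted genes fell. C5ar1, the receptor of the anaphylatoxin C5a, was read at 973, 1030 and 781 CPM in unlasered and 600, 540, 564 and 579 CPM in lasered libraries, with no overlap. The means were 928 ± 130 CPM (SD, n = 3) and 571 ± 25.3 CPM (SD, n = 4), a log2 fold change of -0.69 (SE 0.12, adjusted p = 0.0162 in limma). The call was lost in 2 of 16 alternatives, 1 of them without lasered library 2, and the adjusted p ran from 0.000123 to 0.108. C3ar1 was read at 1236, 916 and 1220 CPM in unlasered and 1359, 1391, 1700 and 1101 CPM in lasered libraries, and the log2 fold change was 0.30 (SE 0.17, adjusted p = 0.331 in limma). Itgb2, a chain of complement receptors 3 and 4, stood at 639 ± 103 CPM (SD, n = 3) and 688 ± 55.4 CPM (SD, n = 4) and did not pass (log2 fold change 0.11, adjusted p = 0.673 in limma). The difference between the changes of C5ar1 and C3ar1 was not tested.

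Among the soluble regulators 1 of 5 fitted genes of 11 fell, and among the membrane regulators 1 of 4 of 8. Vtn, the gene of vitronectin, which keeps terminal complexes from membranes, was read at 31.6, 268 and 82.4 CPM in unlasered and 12.1, 7.51, 12.7 and 2.29 CPM in lasered libraries, with a log2 fold change of -3.42 (SE 0.70, adjusted p = 0.0261 in limma). Its order over the unlasered libraries was that of the rod marker sums, and the part of rod RNA was not tested. Without unlasered library 2 the log2 fold change was -2.63 and the call was lost, as it was without unlasered library 3, lasered library 2 or lasered library 3, with adjusted p from 0.000268 to 0.122 over 16 alternatives. Csmd3, one of a family of large CUB and sushi domain proteins, was read at 16.1, 5.26 and 7.22 CPM and at 3.08, 3.10, 2.24 and 2.61 CPM, with a log2 fold change of -1.36 (SE 0.32, adjusted p = 0.0403 in limma). It missed the threshold in 9 of 15 alternatives, among them each setting without unlasered library 1 or 3 or a lasered library, with adjusted p from 0.000369 to 0.129. Its relative Csmd1 stood lower without overlap and did not pass (log2 fold change -1.04, SE 0.30, adjusted p = 0.0756 in limma).

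**Figure D4:**
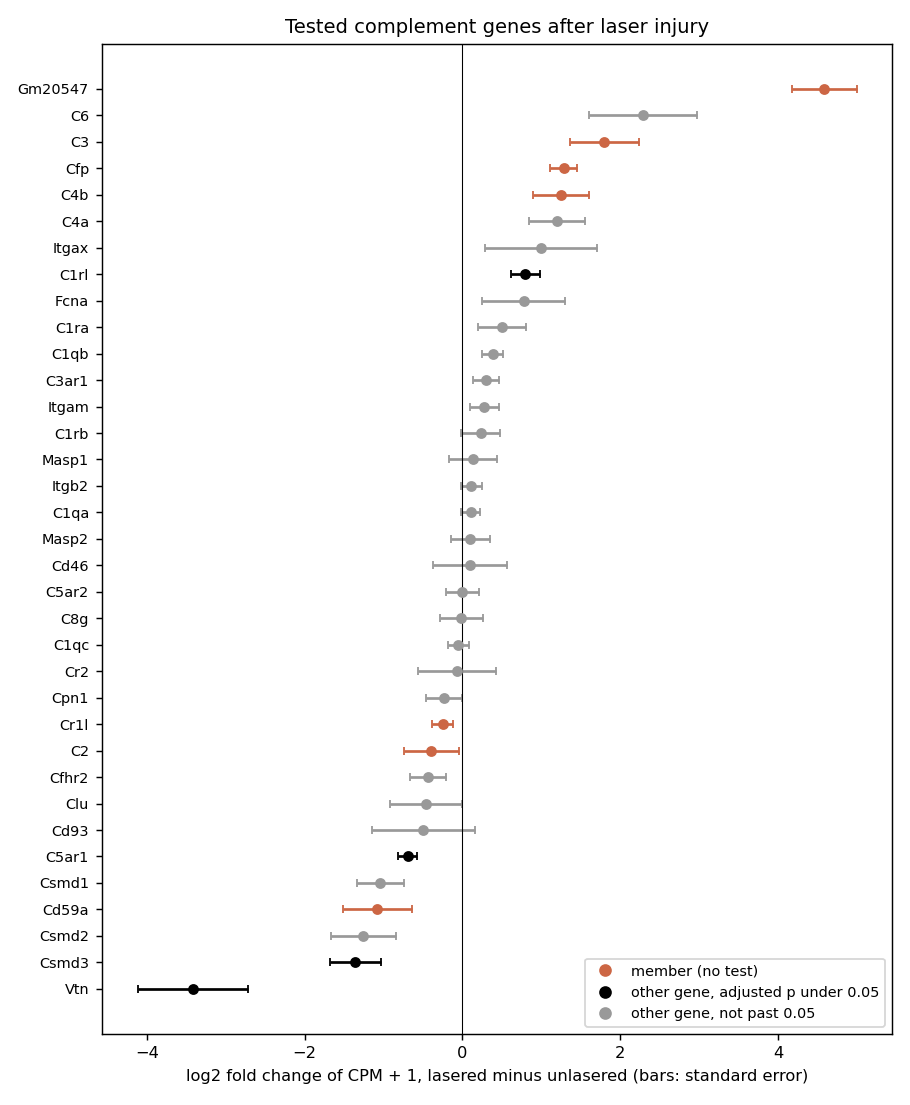
Log2 fold change of CPM + 1, lasered minus unlasered, with SE bars from the limma fit, for the 7 fitted members (orange, no test) and other fitted complement genes (black, adjusted p under 0.05; grey, not past it). Gm20547 is farthest to the right at 4.59, C1rl is the 1 black point above 0, and C5ar1, Csmd3 and Vtn are the black points below 0.

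To see which other genes varied over the 7 libraries as C3 and the Gm20547 row did, profiles of log2(CPM + 1) were centred on their mean and compared by the mean absolute difference, over 10287 fitted genes with a mean of at least 10 CPM. The nearest to C3 were Csf2rb2 at 0.30, Il18rap at 0.31, Slc2a9 at 0.31, Cpd at 0.35 and Slc39a14 at 0.35 log2 units. Csf2rb2, which encodes a beta chain of the IL-3 receptor, was read at 7.83, 6.63 and 22.9 CPM in unlasered and 57.4, 47.6, 46.1 and 28.4 CPM in lasered libraries. Cpd, the gene of carboxypeptidase D, was read at 92.8, 92.6 and 317 CPM in unlasered and 306, 242, 343 and 310 CPM in lasered libraries. Like C3, these 5 genes were highest in unlasered library 3 within the unlasered group. Of the other members C4b came at rank 36, Cfp at rank 196 and the Gm20547 row at rank 10036 by likeness to C3.

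The nearest to the Gm20547 row were Spp1 at 0.30, Saa3 at 0.64, Fam189a2 at 0.68, Cspg4 at 0.80 and Emp1 at 0.89 log2 units. Spp1, the gene of the secreted phosphoprotein osteopontin, was read at 44.9, 49.2 and 62.7 CPM in unlasered and 1421, 874, 1385 and 487 CPM in lasered libraries. Saa3, an acute phase serum amyloid A gene, was read at 10.7, 12.7 and 7.27 CPM in unlasered and 176, 108, 141 and 46.2 CPM in lasered libraries. As in the Gm20547 row, lasered library 4 was the lowest of its group for Spp1, Saa3, Fam189a2, Cspg4 and Emp1. C3 came at rank 29, Cfp at rank 87 and C4b at rank 96. Genes with large rises come near each other by this measure, and all profiles share the same 7 libraries, so the likeness is a description with no test.

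**Figure D5:**
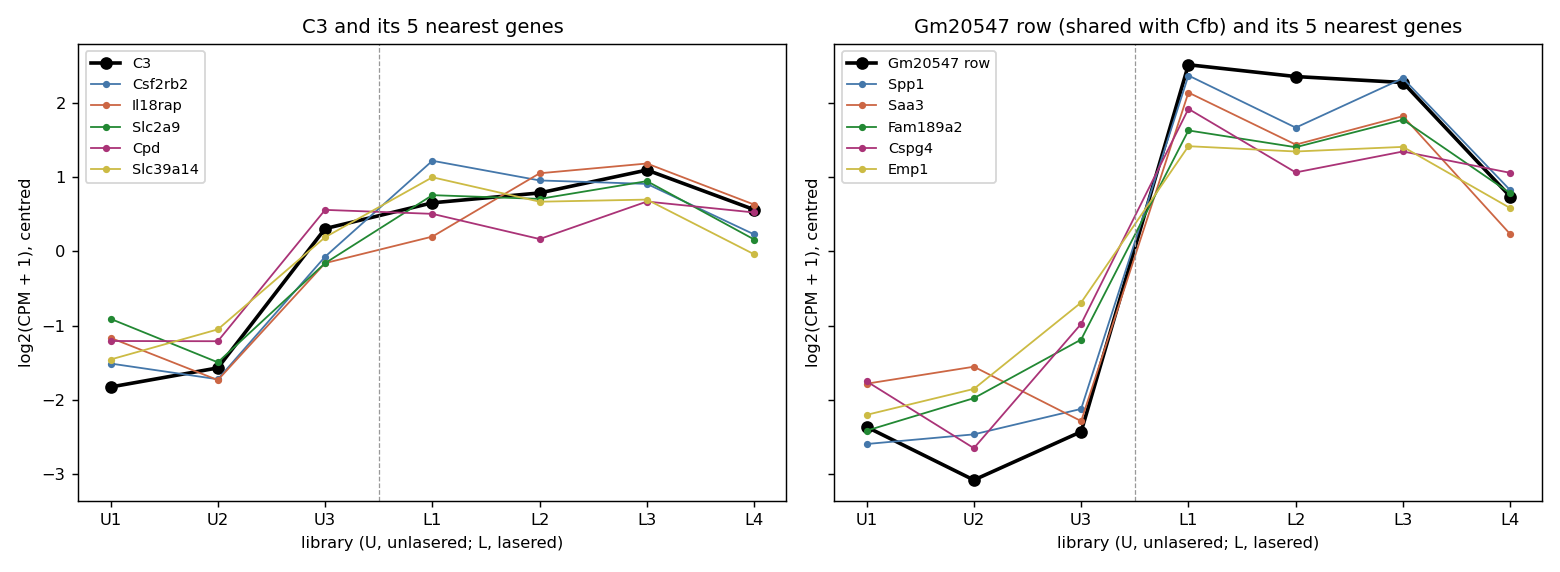
Log2(CPM + 1) centred on the mean over the 7 libraries (U, unlasered; L, lasered) of C3 (left, black) and the Gm20547 row (right, black), each with its 5 nearest genes (colours). C3 and its nearest genes are higher in U3 than in U1 and U2, and the Gm20547 row and its nearest genes are lowest in L4 within the lasered group.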

How the data were processed

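RNA-seq values of 7 libraries (3 unlasered, 4 lasered) were analysed. The authors removed adapters and duplicate reads (cutadapt, FastUniq), mapped reads with Bowtie2 to GRCm38 (the build per the submitters' processing notes) and counted them per gene with HTSeq. The deposited values are headed TPM but are CPM: each was a whole multiple of 1 step per library, and whole reads were recovered for 100% of values (within 0.05 reads). The library kit does not mark strand. For 4492 genes some reads are assigned to a pair or group of overlapping genes.

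Groups were tested on log2(CPM + 1) by limma 3.58.1 (R 4.3.3; trend, robust empirical Bayes, two-sided), and p-values were adjusted by Benjamini-Hochberg over the genes reaching 1 CPM in 3 or more libraries. Alternatives were a pseudocount of 0.1, other filters, a block for replicate number, leaving out each library in turn, median-of-ratios scaling, thinning, edgeR 4.0.16, DESeq2 1.42.0 and genes listed under 1 name. On recovered reads edgeR called 1266 genes and DESeq2 2318. Each library was a pool of mice, so p-values measure the spread between these pools, not between mice. Genes named besides the members were Irf8, other complement genes that passed, did not overlap or were among the 6 highest, and the 5 genes nearest to C3 and to the Gm20547 row. C4a, C6 and Cfd were named after their values were seen, as were the single cell type markers given by name. The members and lists were chosen with earlier results of these data known. The values of 1 complement gene are not reported here and not plotted; it is included in the counts. Annotation was GENCODE M21. In simulated data with 200 changed genes, 48% of 2-fold, 96% of 4-fold and 100% of 8-fold changes were recovered. Of the calls, 2.04%, 4.95% and 9.91% were false in these settings, the last above the 5% aimed at. The counts were drawn for each gene on its own, with no difference in cell mixture between libraries.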

Additional observations from a re-analysis of the deposited data

Results flagged for a closer look

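In groups of 4 libraries, 29 levels were examined for a library far from the others by Dixon's criterion, which chance meets for about 1 in 20 groups, and 3 met it in the lasered group. Lasered library 2 held 0.156 CPM in the row headed Cfb, or 7 reads, against 0 to 1 read in the other lasered libraries. Irf8 stood at 582 CPM in lasered library 4, against 463 to 475 CPM in the others. Emp1 stood at 57.3 CPM in lasered library 4, below the other lasered libraries.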

How the results depend on the processing

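The number of genes passing was 1213 (676 higher, 537 lower). It was 385 with no filter on low values, 2318 with DESeq2 and 264 to 1248 with a library left out, the lowest without lasered library 2. Of the other complement genes 4 passed, against 1 with no filter, 8 with DESeq2 and 0 to 4 with a library left out (0 without lasered library 2). Of the members 3 passed, against 1 where only genes listed under 1 gene name were kept, which takes out the rows of C3, C2 and Gm20547, and 2 to 4 with a library left out. The members that were fitted kept the sign of their log2 fold change under every alternative run. With the replicate number as a block, 3 genes passed, 0 of the other complement genes and 1 member. The labels give shared numbers but no pairing, and deviations of same-numbered libraries correlated at -0.18, -0.13 and -0.02, so the numbers are not known to pair the libraries, and the lost calls are not read as weaker changes.

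The sign turned for 3 genes near 0: Irf8 was at 0.0412 and C1qc at 0.0292 with median-of-ratios scaling. With a library left out, C1qa ran from -0.0013 (without unlasered library 3) to 0.202, and C1qc from -0.187 to 0.0515 (without unlasered library 1). The cause was not tested. That scaling moved the median log2 fold change by 0.08. Depth limits the Cfb row and the 24 other complement genes under the filter, Cfd among them, and the CPM of reads listed jointly cannot be divided between Cfb and Gm20547.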
